A study of Mus musculus with 9 samples.

Results

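The genes described here encode the enzymes and the carrier that make, isomerise, oxidise, export and cleave citrate. They were taken by name and by no rule on measured values, although earlier results of these data were known. All 9 (Cs, Aco1, Idh1, Idh2, Idh3a, Idh3b, Idh3g, Slc25a1 and Acly) were found among the 22165 gene rows of the count table. Each also passed the filter on low counts, which kept 10781 genes for testing. Messenger RNA was read in mouse bone marrow-derived macrophages of the C57BL/6N strain, from mice 6 to 16 weeks old, all harvested 24 h after 100 ng/mL lipopolysaccharide (LPS), a bacterial outer membrane component. There were 3 libraries in each of 3 labelled groups. The first group was wild type with LPS (WT) and the second was Irg1-/- with LPS (KO). The third was Irg1-/- with LPS, to which 1 mM itaconate was added 4 h after the LPS (KO with itaconate). Every group received LPS, so no unstimulated level was measured. The labels name no separate animals or cultures for the replicates, so p-values measure variation among these libraries alone, and some of it may be technical.

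Citrate synthase condenses acetyl-CoA with oxaloacetate in the mitochondrial matrix, and aconitase turns citrate into isocitrate through cis-aconitate. Irg1 (also Acod1) draws cis-aconitate off to make itaconate, so it competes with the isocitrate dehydrogenases for the same carbon. The matrix enzyme IDH3, built from the products of Idh3a, Idh3b and Idh3g, uses NAD+, whereas IDH1 in the cytosol and IDH2 in the matrix use NADP+ and yield NADPH. Citrate that leaves through the carrier SLC25A1 is cleaved in the cytosol by ACLY to acetyl-CoA and oxaloacetate. In macrophages activated by LPS this export route is known to feed fatty acid synthesis and inflammatory mediators, and itaconate is known to inhibit succinate dehydrogenase.

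Gene reads per library ranged from 7361671 to 20430359. Levels are given as CPM, the library's gene reads being set to an equal total and then scaled by trimmed mean of M-values (TMM), and 3 reads correspond to 0.147 to 0.408 CPM before that scaling, for counting error only. Reads came from the 3′ ends of transcripts and were not divided by length, so a level is compared between libraries and never between genes. Acod1 reads, which check the genotype labels, went against them in 4 libraries. They numbered 94, 117 and 31169 in WT replicates 1 to 3, 154, 170 and 44920 in KO, and 94, 8 and 60716 in KO with itaconate. The deleted part of the gene is not stated in the labels. WT replicates 1 and 2, KO replicate 3 and KO with itaconate replicate 3 are the 4 libraries that conflict with their labels, and WT, KO and KO with itaconate below always mean the libraries labelled so. The description labels carry a number after a shared prefix, read here as a pool number. Pool 1 held WT replicates 1 to 3 and KO replicates 1 and 2, pool 2 held KO replicate 3 and KO with itaconate replicate 1, and pools 3 and 4 held KO with itaconate replicates 2 and 3. WT and KO with itaconate therefore shared no pool. With the pool as a term, KO with itaconate is set against KO only through the 2 libraries of pool 2, and against WT only through these and the KO libraries. KO with itaconate replicate 3 also had the largest share of reads outside annotated genes, 33.7% against 23.1% to 28.4% in the other 8. Summed markers of macrophages (10 genes) ranged from 8673 to 11353 CPM in WT, from 7561 to 8311 CPM in KO and from 4037 to 8533 CPM in KO with itaconate, without TMM scaling. On the same scale, T and NK cell markers summed to at most 0.164 CPM (Cd3e, Ncr1 and Gzma at 0), B cell markers to at most 1.47 CPM (Cd79a and Pax5 at 0) and erythroid markers to at most 0.868 CPM. Fibroblast and stroma markers (6 genes) summed to 194 to 274 CPM in WT, 196 to 221 CPM in KO and 167 to 261 CPM in KO with itaconate.

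No member of the citrate and isocitrate set passed the test between any pair of labelled groups. By the edgeR quasi-likelihood test, with Benjamini-Hochberg adjustment over all genes, 0 of 9 members were called in each of the 3 comparisons, where 0% of the 10781 genes tested were called. DESeq2 called no member either, against a background of 0.00929% of tested genes for KO against WT, 0.111% for KO with itaconate against KO and 0.158% for KO with itaconate against WT. By limma-voom 0 of 9 members and 0% of genes were called in each. At an unadjusted p under 0.05 there was 1 member for KO against WT (Idh3g), 1 for KO with itaconate against KO (Idh3a) and none for KO with itaconate against WT. The same rule took 3.13%, 8.3% and 8.89% of all tested genes. Libraries of the groups compared did not overlap for 2, 1 and 2 members, and for 10.6%, 10.9% and 14.6% of all genes. These member counts are too small to be set apart from those shares.

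**Figure D1:**
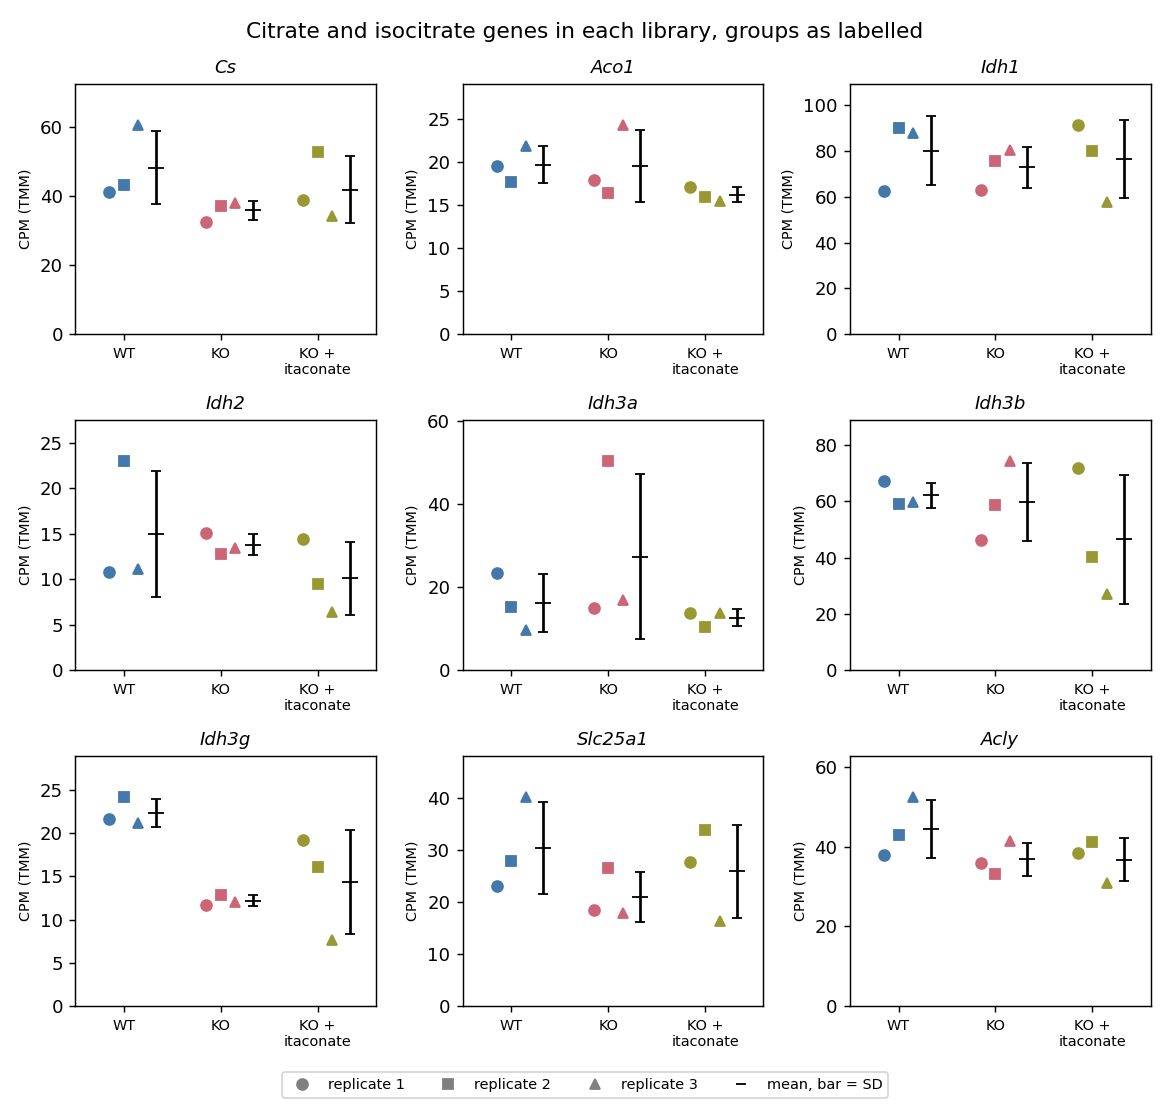
CPM (TMM scaled, vertical axes from 0) of the 9 genes in each library, one marker shape per replicate number, with the mean and SD of 3 libraries beside them. Idh3g libraries labelled WT (21.1 to 24.1 CPM) sit apart from those labelled KO (11.7 to 12.8 CPM), whereas most other genes overlap between groups.

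Fitted directions leaned one way in the comparisons with WT. Between KO and WT, 8 of 9 members had lower fitted values in KO and 1 (Idh3a) a higher one, with a median log2 fold change of -0.14, where 48.9% of all tested genes were higher and the median was -0.01. For KO with itaconate against WT, 0 of 9 were higher and the median was -0.28, against 49.1% of all genes higher and a median of -0.01. With the pool as a term, 2 of 9 were higher and the median was -0.19. For KO with itaconate against KO, 4 of 9 were higher, with a median of -0.00023, against 48.4% and -0.02. The comparisons share libraries, so they are not separate evidence. Without the 4 libraries that conflict with their Acod1 reads, 7 of 9 were lower in KO than in WT (median -0.33), 7 of 9 were lower in KO with itaconate than in WT (-0.26), and 6 of 9 were higher in KO with itaconate than in KO (0.18). WT is then 1 library, replicate 3, whose spread is assumed to be that of the other groups. Mean levels were highest in WT for 8 members, and lowest in KO for 4 and in KO with itaconate for 5.

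KO with itaconate replicate 3 was the lowest of the 9 libraries for 7 of 9 members, all except Cs and Idh3a, and none of the 9 lay above its own mean there. The summed level of the 9 members was 209 CPM in that library, and 333 and 300.2 CPM in replicates 1 and 2 of the same group. It was 308, 343 and 364 CPM in WT replicates 1 to 3 and 256, 323 and 318 CPM in KO. Group means of this sum were 338 ± 28.7, 299 ± 37.7 and 281 ± 63.8 CPM (SD, n = 3) for WT, KO and KO with itaconate. The ranges overlapped between all 3 groups. Without KO with itaconate replicate 3, the median for KO with itaconate against WT was -0.15, with 2 of 9 members higher.

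**Figure D2:**
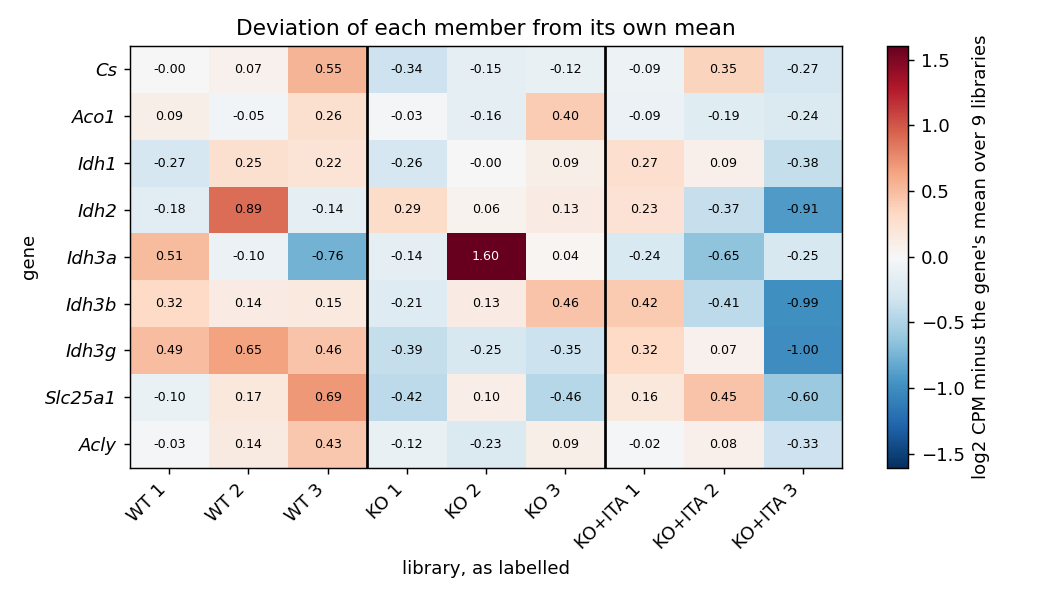
Log2 CPM of each member minus its own mean over the 9 libraries, by library as labelled, with vertical lines between groups. Every value is below 0 in KO with itaconate replicate 3, and Idh3a in KO replicate 2 has the largest deviation, 1.60.

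Cs encodes citrate synthase, which makes citrate (ENSMUSG00000005683.7; chromosome 10, plus strand, 128337734 to 128362479, 11 exons; all positions are in GRCm38, the mm10 assembly). It was at 41.3, 43.2 and 60.6 CPM in WT replicates 1 to 3, at 32.6, 37.1 and 38.0 CPM in KO, and at 38.9, 52.7 and 34.2 CPM in KO with itaconate. Every library labelled KO was below every library labelled WT, while KO with itaconate overlapped both. The log2 fold change of Cs for KO against WT was -0.43 ± 0.28 (SE; 95% interval -1.02 to 0.17), with an edgeR adjusted p of 0.995. That value was -0.24 without WT replicate 3, the library with the highest Cs level, and -0.78 without the 4 libraries that conflict with their Acod1 reads.

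Slc25a1 encodes the mitochondrial citrate carrier (ENSMUSG00000003528.14; chromosome 16, minus strand, 17925223 to 17928219). Its levels were 23.0, 27.9 and 40.1 CPM in WT replicates 1 to 3, 18.4, 26.5 and 17.9 CPM in KO, and 27.7, 33.9 and 16.3 CPM in KO with itaconate. WT and KO overlapped through KO replicate 2. Slc25a1 differed by -0.53 ± 0.33 between KO and WT on the log2 scale (adjusted p = 0.995 by edgeR), by -0.28 without WT replicate 3 and by -0.82 without the 4 libraries that conflict with their Acod1 reads. For KO with itaconate against KO the difference was 0.31 ± 0.33 (95% interval -0.39 to 1.01, adjusted p = 0.831), and it was 0.07 without KO with itaconate replicate 2, 0.54 without replicate 3 of that group and 0.63 with a pool term.

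Acly encodes ATP citrate lyase, the enzyme that returns exported citrate to acetyl-CoA (ENSMUSG00000020917.17; chromosome 11, minus strand, 100476353 to 100528000, up to 29 exons). Acly was at 38.0, 42.8 and 52.4 CPM in WT replicates 1 to 3, 35.8, 33.2 and 41.4 CPM in KO and 38.3, 41.2 and 30.8 CPM in KO with itaconate, and the 3 groups overlapped. Its log2 fold change was -0.27 ± 0.26 for KO against WT and the same, -0.27 ± 0.26, for KO with itaconate against WT (adjusted p = 0.995 and 0.769 by edgeR). Without WT replicate 3 both were -0.14, and without the 4 libraries that conflict with their Acod1 reads they were -0.58 and -0.41. Between KO with itaconate and KO it was -0.00023 ± 0.26, with a 95% interval of -0.56 to 0.56. The interval bounds how far the 2 groups could differ and does not show that they were equal. Across the 9 libraries Acly had a coefficient of variation of 16.0%, where the median over tested genes of all levels was 31.4%. Counting error raises this coefficient at low counts, and no comparison with genes of similar level was made.

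Levels of Cs, Slc25a1 and Acly were all highest in WT replicate 3. Of the 36 pairs among the 9 members, 29 had a positive Pearson correlation of log2 CPM over the 9 libraries, with a median of 0.41. Without KO with itaconate replicate 3, the lowest library for 7 of 9 members, r was lower for every pair. For Idh3b and Idh3g it fell from 0.65 to 0.21. For some pairs the sign turned, as for Idh3b and Slc25a1, from 0.28 to -0.24. The share of positive pairs among all tested genes was not computed. Over all 9 libraries Cs and Slc25a1 had the highest correlation, r = 0.88 (exact permutation p = 0.00109, adjusted p = 0.0392 over the 36 pairs), with a Spearman rho of 0.85 (exact permutation p = 0.00607, adjusted p = 0.184). Without the 2 libraries farthest from the median of Cs, r was 0.70, and without KO with itaconate replicate 3 it was 0.87. Cs and Acly followed with r = 0.84 (exact permutation p = 0.00415, adjusted p = 0.0747) and rho = 0.80 (exact permutation p = 0.0138, adjusted p = 0.184). Their r was 0.70 without the 2 libraries farthest from the median of Cs. Slc25a1 and Acly had r = 0.70 (exact permutation p = 0.0328, adjusted p = 0.201) and rho = 0.67 (exact permutation p = 0.0589, adjusted p = 0.303). This r was 0.17 without the 2 libraries farthest from the median of Slc25a1, and 0.58 without KO with itaconate replicate 3. Leaving out the most extreme libraries narrows the range, which by itself lowers r. The value of 0.17 therefore does not settle whether r rests on those 2 libraries. Of the 36 pairs, 1 passed the adjusted threshold by Pearson's r and none by Spearman's rho. With 3 libraries a group, no correlation within a group or a pool was computed. The permutations treat the 9 libraries as exchangeable. Their p-values therefore do not separate a link between 2 genes from differences between groups or pools.

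**Figure D3:**
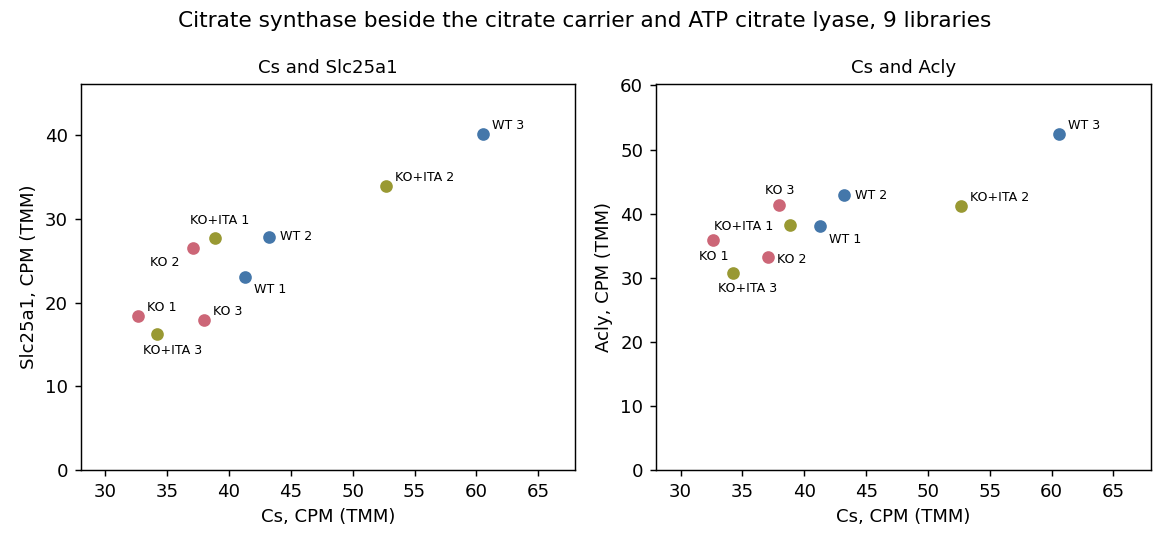
Cs level (horizontal, CPM) against Slc25a1 (left) and Acly (right) in the 9 libraries, coloured by labelled group. WT replicate 3 is at the upper right of both panels, with 60.6 CPM for Cs, 40.1 for Slc25a1 and 52.4 for Acly.

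The promoters of these 3 genes are shown because Cs had its highest correlations with the other two. Each is the 250 bases before the RefSeq transcription start, from the RefSeq table of GRCm38.p6, written 5′ to 3′ on the gene's own strand. They lie at chr10:128337477-128337726 (Cs, plus strand), chr16:17928220-17928469 (Slc25a1, minus) and chr11:100528001-100528250 (Acly, minus). Capitals mark matches to the motifs searched. The motifs were CCAAT (the CCAAT box), GGGCGG (the GC box), CACGTG (an E-box), TCACNCCAC (a sterol regulatory element), TGACGTCA (a cyclic AMP response element), GCGCATGCG (an NRF1 type of site) and GGGANTTCC (an NF-kappaB type of site), each on both strands, with overlaps between motifs allowed.
Cs: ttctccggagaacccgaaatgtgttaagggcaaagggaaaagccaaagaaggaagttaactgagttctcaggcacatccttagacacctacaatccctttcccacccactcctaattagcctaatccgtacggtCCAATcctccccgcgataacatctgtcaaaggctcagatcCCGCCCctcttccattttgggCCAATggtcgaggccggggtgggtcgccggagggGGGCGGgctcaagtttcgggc
Slc25a1: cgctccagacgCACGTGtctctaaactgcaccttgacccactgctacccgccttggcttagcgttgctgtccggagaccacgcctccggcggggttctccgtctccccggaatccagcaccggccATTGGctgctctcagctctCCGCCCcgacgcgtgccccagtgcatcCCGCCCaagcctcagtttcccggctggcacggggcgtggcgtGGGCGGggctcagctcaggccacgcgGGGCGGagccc
Acly: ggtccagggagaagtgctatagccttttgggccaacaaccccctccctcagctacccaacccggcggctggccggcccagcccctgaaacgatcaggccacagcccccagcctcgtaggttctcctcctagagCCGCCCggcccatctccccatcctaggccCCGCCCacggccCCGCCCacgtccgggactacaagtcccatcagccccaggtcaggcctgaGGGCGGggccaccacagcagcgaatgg

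The Cs window held 2 matches to CCAAT and 2 to GGGCGG. The Slc25a1 window held 4 matches to GGGCGG, 1 to CCAAT and 1 to CACGTG, and the Acly window 4 to GGGCGG and no other match. GGGCGG was found in 32.7% of the 32851 promoter windows of the same length, CCAAT in 33.8% and CACGTG in 6.02%. RefSeq windows existed for 8 of the 9 members (9 windows, 2 of them for Idh1), and 7 of these held GGGCGG and 5 held CCAAT. TCACNCCAC, which occurs in 1.05% of all windows, was in none of the 9. Nor were TGACGTCA (1.55% of all windows), GCGCATGCG (1.45%) or GGGANTTCC (1.43%). The 3 promoters were rich in G and C, at 55.2% for Cs, 70.0% for Slc25a1 and 68.8% for Acly, where the median window had 52.4%. A match describes the letters only.

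Aco1 encodes the cytosolic aconitase, which also acts as the RNA-binding iron regulatory protein when its iron-sulphur cluster is lost (ENSMUSG00000028405.9; chromosome 4, plus strand, 40143081 to 40198338, 21 exons). Its levels were 19.6, 17.7 and 21.9 CPM in WT replicates 1 to 3, 18.0, 16.4 and 24.3 CPM in KO, and 17.2, 16.0 and 15.5 CPM in KO with itaconate. Each library of KO with itaconate lay below each WT library, by a small margin. Aco1 differed by -0.01 ± 0.27 between KO and WT, by -0.27 ± 0.27 between KO with itaconate and KO, and by -0.28 ± 0.27 between KO with itaconate and WT (log2; adjusted p = 0.999, 0.821 and 0.770 by edgeR). The second value was -0.09 without KO replicate 3 and -0.08 without the 4 libraries that conflict with their Acod1 reads. With the pool as a term, the 3 values were -0.20 ± 0.27, -0.50 ± 0.42 and -0.70 ± 0.50. Its spread over the 9 libraries was the smallest of the 9 members, a coefficient of variation of 15.8%. That was at or above the value of 5.58% of tested genes, taken at all levels of expression.

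Of the NADP-dependent isocitrate dehydrogenases, Idh1 encodes the cytosolic enzyme (ENSMUSG00000025950.16; chromosome 1, minus strand, 65158616 to 65186500). It was at 62.7, 90.0 and 87.7 CPM in WT replicates 1 to 3, 62.8, 75.5 and 80.4 CPM in KO and 91.2, 80.2 and 57.8 CPM in KO with itaconate. The 3 groups covered nearly the same range. Differences of Idh1 were -0.14 ± 0.28 for KO against WT, 0.07 ± 0.28 for KO with itaconate against KO and -0.07 ± 0.28 for KO with itaconate against WT. The last had a 95% interval of -0.67 to 0.53 and an adjusted p of 0.954 by edgeR.

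Idh2 encodes the matrix enzyme (ENSMUSG00000030541.16; chromosome 7, minus strand, 80094846 to 80115392), and the gene model Gm45203, which has no row in the table, overlaps it by 1831 bp on the same strand. Its levels were 10.8, 22.9 and 11.1 CPM in WT replicates 1 to 3, 15.0, 12.8 and 13.5 CPM in KO and 14.4, 9.42 and 6.44 CPM in KO with itaconate. WT replicate 2 was high, with 294 reads, and KO with itaconate replicate 3 was low, with 61. The difference for KO with itaconate against WT was -0.57 ± 0.38 (95% interval -1.37 to 0.23, edgeR adjusted p = 0.664). It was -0.12 without WT replicate 2, -0.92 without KO with itaconate replicate 1 and -0.33 without replicate 3 of that group, and -0.018 with a pool term. For KO against WT the value was -0.13 ± 0.37, and its sign turned, to 0.33, without WT replicate 2.

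The balance between reads of the NADP-dependent genes was measured as the share of Idh2 in Idh1 plus Idh2 reads, which needs no scaling between libraries. It is a share of reads and not of enzyme, and is compared only between libraries. The share was 14.7%, 20.3% and 11.2% in WT replicates 1 to 3, 19.3%, 14.5% and 14.4% in KO, and 13.6%, 10.5% and 10.0% in KO with itaconate. Wilson 95% intervals for single libraries, which cover counting error only, were 18.3% to 22.5% in the highest (WT replicate 2) and 7.88% to 12.7% in the lowest (KO with itaconate replicate 3). Each library of KO with itaconate was below each KO library. The means were 15.4% ± 4.59, 16.0% ± 2.83 and 11.4% ± 1.96 (SD, n = 3) in WT, KO and KO with itaconate. The difference between KO with itaconate and KO was -4.66 percentage points (exact permutation test, two-sided, p = 0.1, adjusted p = 0.6 over 12 share comparisons), and 0.1 is the smallest p that 3 libraries against 3 allow. It lay between -5.78 and -3.03 points when any 1 library was left out.

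Idh3g, which encodes a regulatory subunit of the NAD-dependent IDH3, had the smallest unadjusted p of the 9 members between KO and WT. The gene is on the X chromosome, minus strand, from 73778963 to 73786897, with 13 exons (ENSMUSG00000002010.17). It was at 21.6, 24.1 and 21.1 CPM in WT replicates 1 to 3, at 11.7, 12.8 and 12.0 CPM in KO and at 19.2, 16.1 and 7.60 CPM in KO with itaconate. All WT libraries were above all others, and the KO libraries lay within a narrow band. Group means were 22.3 ± 1.61, 12.2 ± 0.606 and 14.3 ± 6.01 CPM (SD, n = 3).

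The log2 fold change of Idh3g for KO against WT was -0.87 ± 0.33 (SE; 95% interval -1.57 to -0.17; unadjusted p = 0.0183), but it did not pass over all genes (edgeR adjusted p = 0.995). It lay between -0.91 and -0.81 when any 1 library was left out, and was -0.76 without the 4 libraries that conflict with their Acod1 reads. Within pool 1 (5 libraries) it was -0.84 ± 0.27 (edgeR adjusted p = 0.419). No setting gave a call. Summed neutrophil markers (8 genes, 0 of them at 0 reads throughout) also separated these labels, at 249 to 258 CPM in WT and 165 to 218 CPM in KO, as did the 10 macrophage markers above and 6 dendritic cell markers (0.490 to 0.679 CPM against 0.930 to 1.37 CPM). The dendritic cell sums in WT rest on few reads, as 3 reads correspond to 0.245 to 0.408 CPM in those libraries. In KO with itaconate the neutrophil markers summed to 72.8 to 220.5 CPM, below every WT library, the macrophage markers lay below every WT library too, and the dendritic cell markers (0.578 to 1.16 CPM) overlapped both other groups. Their part in the Idh3g and Cs values, and in the lower fitted values of KO with itaconate against WT, was not tested. In bulk RNA, fewer cells of a type and less RNA per cell cannot be told apart. For KO with itaconate, Idh3g was 0.23 ± 0.33 against KO and -0.64 ± 0.33 against WT (adjusted p = 0.872 and 0.582 by edgeR). Those values were 0.53 and -0.33 without replicate 3 of the itaconate group, and 0.68 ± 0.42 and -0.19 ± 0.50 with the pool as a term.

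**Figure D4:**
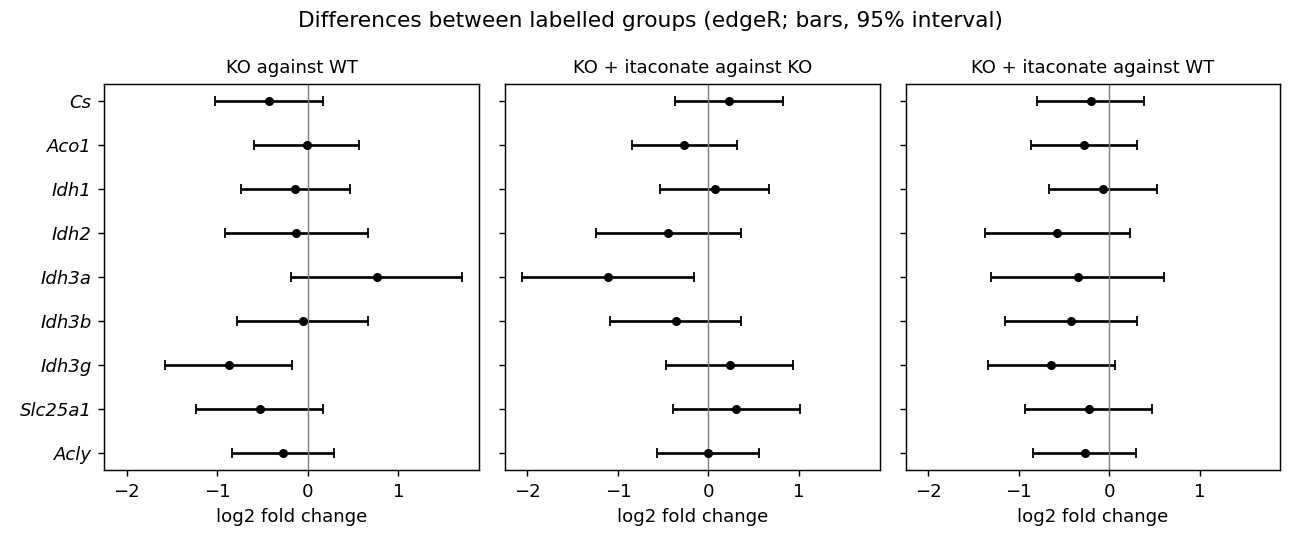
Log2 fold change of each member with its 95% interval, from the edgeR fit of all 9 libraries, in the 3 comparisons. The interval leaves out 0 for Idh3g in KO against WT and for Idh3a in KO with itaconate against KO, before adjustment over all genes.

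The Idh3g promoter is printed because Idh3g had the smallest unadjusted p of the members between KO and WT. It lies at chrX:73786898-73787147 on the minus strand (GRCm38.p6, RefSeq) and is given like the windows above, as the 250 bases before the start. None of the 7 motifs was found in it, so it carries no capitals, and this says only that these letters are not in this window.
Idh3g: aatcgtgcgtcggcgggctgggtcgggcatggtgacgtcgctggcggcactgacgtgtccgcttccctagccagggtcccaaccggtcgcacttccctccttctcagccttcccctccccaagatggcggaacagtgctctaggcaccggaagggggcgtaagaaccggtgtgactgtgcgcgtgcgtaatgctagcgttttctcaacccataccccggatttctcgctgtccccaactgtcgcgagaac

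Idh3a encodes the catalytic subunit (ENSMUSG00000032279.10; chromosome 9, plus strand, 54586334 to 54604661). Its levels were 23.4, 15.3 and 9.63 CPM in WT replicates 1 to 3, 14.8, 50.2 and 16.8 CPM in KO and 13.8, 10.4 and 13.7 CPM in KO with itaconate. KO replicate 2 stood alone at 665 reads, where no other library held more than 304. Idh3a was the most variable of the 9 members, with a coefficient of variation of 66.8%. That was at or above the value of 92.2% of tested genes, taken at all levels of expression. The log2 fold change for KO with itaconate against KO was -1.11 ± 0.45 (unadjusted p = 0.0257, edgeR adjusted p = 0.548), and it was -0.32 without KO replicate 2. A pool term gave -0.28 ± 0.75. For KO against WT it was 0.76 ± 0.44 (adjusted p = 0.995), and -0.028 without KO replicate 2. Without the 4 libraries that conflict with their Acod1 reads the values were -1.44 ± 0.45 (edgeR adjusted p = 0.0904) and 1.78 ± 0.59 (adjusted p = 0.294), and KO replicate 2 is 1 of the 2 KO libraries kept in that fit.

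Idh3b encodes the beta subunit (ENSMUSG00000027406.12; chromosome 2, minus strand, 130279309 to 130284547). It was at 67.3, 59.1 and 59.9 CPM in WT replicates 1 to 3, 46.4, 58.7 and 74.2 CPM in KO and 71.9, 40.3 and 27.0 CPM in KO with itaconate. WT was tight, at 62.1 ± 4.50 CPM, while KO with itaconate spread over 46.4 ± 23.1 CPM (SD, n = 3). Idh3b differed by -0.06 ± 0.34 for KO against WT and by -0.42 ± 0.34 for KO with itaconate against WT (adjusted p = 0.998 and 0.718 by edgeR). The second value was -0.14 without KO with itaconate replicate 3 and -0.89 without replicate 1 of that group. The gene overlaps Nop56 on the other strand by 5 bp.

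Among the reads of the 3 IDH3 subunit genes, the share from Idh3g was 19.2%, 24.5% and 23.3% in WT replicates 1 to 3, 16.0%, 10.5% and 11.7% in KO and 18.3%, 24.1% and 15.7% in KO with itaconate. Every KO library was below every WT library. Means were 22.3% ± 2.75 in WT and 12.7% ± 2.89 in KO (SD, n = 3), a difference of -9.60 percentage points (exact permutation test, two-sided, p = 0.1, adjusted p = 0.6), and between -11.2 and -8.50 points with any 1 library left out. The Idh3a share was 41.3% in KO replicate 2 and 28.4% in KO with itaconate replicate 3, and between 10.6% and 20.8% in the other 7 libraries. Idh3b gave 62.0% ± 3.52 of the reads in WT, 61.3% ± 12.1 in KO and 61.6% ± 6.40 in KO with itaconate. Its share comparisons all had an exact permutation p of 1. These are shares of reads and not of protein subunits.

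**Figure D5:**
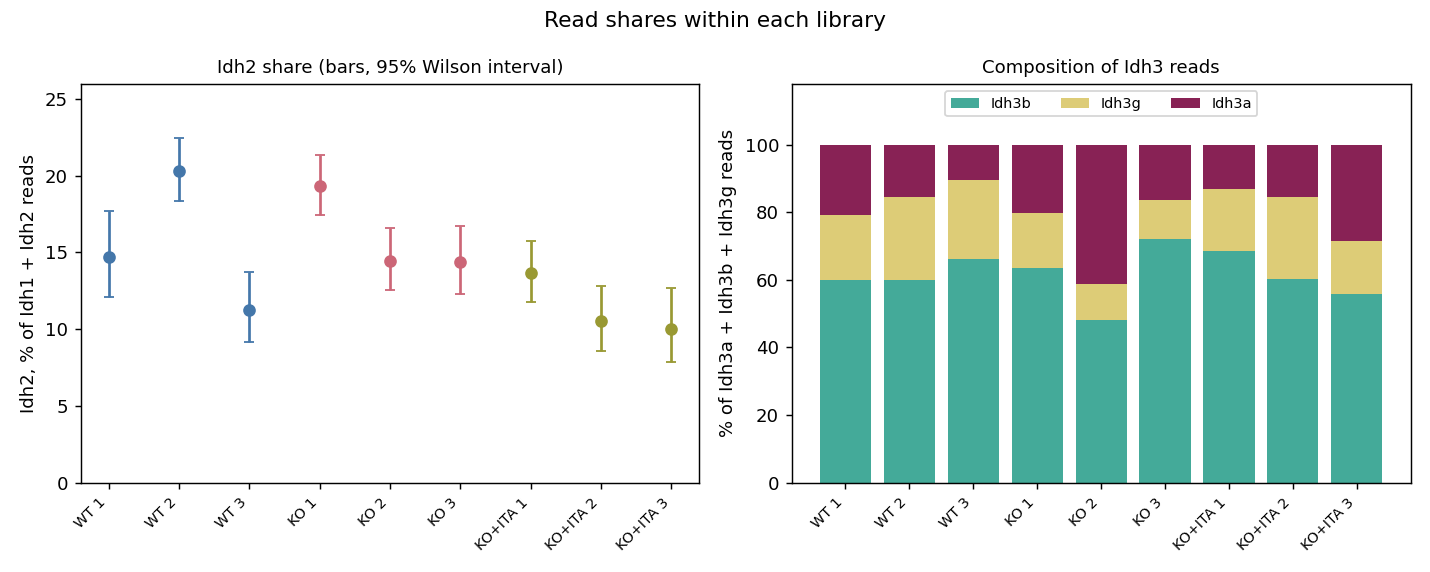
Left, Idh2 as a percentage of Idh1 and Idh2 reads in each library with its 95% Wilson interval; right, the percentages of Idh3b, Idh3g and Idh3a among IDH3 subunit reads. The Idh3g band is narrowest in the 3 KO libraries and KO with itaconate replicate 3 (10.5% to 16.0%), and Idh3a takes 41.3% in KO replicate 2.

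The genes most like each member were named by the highest Pearson correlation of log2 CPM over the 9 libraries, among the genes with a mean of at least 10 CPM (7287 compared per member). They are descriptions, since the highest of many correlations is always large and all points share the same 9 libraries. For Cs they were Txn2 (r = 0.97) and Abce1 (0.95), and for Slc25a1 Rras (0.96) and Pgs1 (0.95). For Acly Timm17b (0.95) was closest. Aco1 was closest to Pdhx (0.92), a component of the pyruvate dehydrogenase complex, and to Asl (0.90). Idh3b was closest to Uqcrfs1 (0.98), a subunit of respiratory complex III, and to Sem1 (0.98), and Idh3g to Derl2 (0.96) and Dctn6 (0.95). Idh3a, whose pattern turns on KO replicate 2, was closest to Entpd1 (0.98) and Vps13b (0.94). Idh1 was closest to 1700123O20Rik (0.97) and Tpt1 (0.97), and Idh2 to Clta (0.95) and Hyi (0.93).

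In the pathways around the 9 members no gene passed the edgeR threshold in any comparison either. The rest of the citric acid cycle and pyruvate entry had 21 of 22 listed genes tested. Of these, 5 were higher and 16 lower for KO against WT (median log2 fold change -0.13), 10 and 11 for KO with itaconate against KO (-0.04), and 7 and 14 for KO with itaconate against WT (-0.10). Pcx, which encodes pyruvate carboxylase and so supplies oxaloacetate for citrate, had the smallest p for KO against WT, at 0.809 ± 0.0891 CPM in KO and 2.54 ± 0.461 CPM in WT (log2 fold change -1.64 ± 0.63, edgeR adjusted p = 0.995). Against KO it was 1.51 ± 0.63 in KO with itaconate (adjusted p = 0.568). Ogdh, the 2-oxoglutarate dehydrogenase subunit that acts after the NAD-dependent step, was at 186 ± 45.6 CPM in KO with itaconate and 112 ± 15.4 CPM in KO (0.73 ± 0.28, edgeR adjusted p = 0.526). Suclg1, a subunit of succinyl-CoA ligase, was -0.80 ± 0.32 for KO with itaconate against WT (adjusted p = 0.542), and Pdp1, a pyruvate dehydrogenase phosphatase, -0.52 ± 0.35 for KO against WT.

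Genes that use cytosolic citrate and acetyl-CoA had 13 of 15 tested. For KO against WT, 5 were higher and 8 lower (median -0.07), for KO with itaconate against KO 6 and 7 (-0.13), and for KO with itaconate against WT 7 and 6 (0.02). Fasn, the fatty acid synthase, was at 2.12 ± 0.752 CPM in KO and 3.88 ± 1.75 CPM in WT (-0.85 ± 0.54, edgeR adjusted p = 0.995). Srebf2, which encodes a transcription factor of sterol synthesis, was -1.11 ± 0.51 for KO with itaconate against KO and -1.08 ± 0.51 against WT (edgeR adjusted p = 0.597 and 0.568). In the same comparisons, in that order, Elovl5 was -0.77 ± 0.41 and Scd2, a stearoyl-CoA desaturase, was -0.63 ± 0.36.

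The other sources of NADPH were all tested (14 of 14), with 4 higher and 10 lower for KO against WT, 6 and 8 for KO with itaconate against KO, and 4 and 10 for KO with itaconate against WT (medians -0.09, -0.16 and -0.24). G6pdx and Pgd, both of the pentose phosphate pathway, were -0.68 ± 0.36 for KO with itaconate against WT and -0.31 ± 0.31 for KO against WT. Me2, a mitochondrial malic enzyme that can use NAD+ or NADP+, was -0.41 ± 0.26 for KO with itaconate against KO, and Nnt, the mitochondrial transhydrogenase, -0.50 ± 0.29 for KO with itaconate against WT. Aldh1l2, of mitochondrial folate metabolism, was -0.88 ± 0.89 for KO against WT and 1.23 ± 0.88 for KO with itaconate against KO, at means of 0.430 to 1.04 CPM. The adjusted p over these lay between 0.589 and 0.995 by edgeR.

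Genes of 2-oxoglutarate, glutamine and mitochondrial carriers had 15 of 17 tested, with 4 higher and 11 lower for KO against WT, 6 and 9 for KO with itaconate against KO, and 4 and 11 for KO with itaconate against WT (medians -0.12, -0.10 and -0.11). Slc25a22, a mitochondrial glutamate carrier, was at 55.6 ± 10.4 CPM in KO with itaconate, 25.3 ± 9.70 CPM in KO and 27.2 ± 9.58 CPM in WT (1.14 ± 0.34 and 1.04 ± 0.34, edgeR adjusted p = 0.507 and 0.518). The itaconate libraries overlapped neither of the other groups. Gpt2, the mitochondrial alanine transaminase, was -1.50 ± 0.51 for KO with itaconate against WT and -0.75 ± 0.49 for KO against WT, and Slc25a11, the 2-oxoglutarate carrier, was -0.49 ± 0.32 for KO against WT.

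The list around the iron regulatory protein encoded by Aco1 holds its partner, its targets and related genes such as Hif1a, which is not an established target. Of these, 9 of 11 were tested. There were 5 higher and 4 lower for KO against WT (median 0.04), 6 and 3 for KO with itaconate against KO (0.32), and 5 and 4 for KO with itaconate against WT (0.40). Tfrc, the transferrin receptor, was at 161 ± 163 CPM in KO with itaconate, an SD as large as the mean, and at 58.2 ± 13.6 CPM in KO and 55.0 ± 10.5 CPM in WT. Its log2 fold changes were 1.47 ± 0.53 and 1.55 ± 0.54 (edgeR adjusted p = 0.520 and 0.518). Hif1a was 0.35 ± 0.30 for KO with itaconate against KO, and Ftl1, the ferritin light chain, -0.39 ± 0.32 for KO against WT. Cdc14a, a protein phosphatase, was 0.72 ± 0.35 for KO against WT and 0.94 ± 0.35 for KO with itaconate against WT (edgeR adjusted p = 0.995 and 0.524).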

How the data were processed

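Messenger RNA of 9 libraries was captured with oligo-dT beads, copied with barcoded oligo-dT primers and sequenced strand-specifically, per the labels' protocols, with no molecular identifier mentioned. The deposited values are raw read counts, 1 row a gene and 1 column a library. STAR, HTSeq and mm10 are named in the submitters' processing notes. Not given in the sources used here are their versions, the annotation release, any filter and the strand setting. The 5 summary lines of the counter were left out (reads outside genes 23.1% to 33.7%, several alignments 17.1% to 20.0%). Symbols and GRCm38 positions (GENCODE M21) were joined by Ensembl identifier, for 21745 of 22165 rows.

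All 9 libraries entered 1 edgeR 4.0.16 quasi-likelihood fit (R 4.3.3) with group as its term, TMM factors and a filter at a minimum count of 10. The fit was also run on simulated counts without pool effects or label conflicts. Its recovery of known changes there is not reported here. P-values were adjusted over all 10781 genes at 0.05. SE is the log2 fold change divided by the root of F. Shares were compared by exact permutation. DESeq2 1.42.0, limma-voom 3.58.1, RLE factors, no filter, 2-group fits, a replicate block, a pool term and omitted libraries were the alternatives. The pool is read from the number in the description label, which the labels do not define. Named genes were the 9 members, Acod1, the 2 genes of each list with the smallest p per comparison, and the 2 genes most like each member. Some genes that this rule names are not reported here. Members, lists and the choice of the 4 libraries were made with earlier results of these data known.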

Additional observations from a re-analysis of the deposited data

How the results depend on the processing

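Across the 18 alternatives (9 of them omit a single library) no member was called, and the smallest adjusted p over them was 0.0904 (Idh3a, KO with itaconate against KO). Fitted directions held in 153 of 162 values for KO against WT, 141 of 153 for KO with itaconate against KO and 144 of 153 for KO with itaconate against WT. Some alternatives refit the same counts or omit a library outside the comparison, so their agreement is largely built in. These totals are therefore not separate checks. Directions that turned are as follows. Acly in KO with itaconate against KO was 0.0062 with RLE factors, 0.0066 by DESeq2, 0.00082 with only the groups compared, 0.0076 with the replicate block and 0.18 without the 4 libraries. With the pool as a term, Idh2 was 0.096 against KO, and Idh3a 0.73 and Slc25a1 0.20 against WT, all in KO with itaconate. Without the 4 libraries, Idh2 was 0.35 for KO against WT and 0.10 for KO with itaconate against WT, Idh3a 0.33 in the latter, and Idh3b 0.075 for KO with itaconate against KO. The Idh2 share difference for KO with itaconate against WT was then 0.844 percentage points. With 1 library left out, values for KO against WT ranged from -0.17 to 0.096 for Aco1, -0.31 to 0.33 for Idh2, -0.028 to 1.13 for Idh3a and -0.22 to 0.097 for Idh3b. For KO with itaconate against KO they ranged from -0.081 to 0.23 for Idh1, -0.042 to 0.53 for Idh3g and -0.091 to 0.10 for Acly, and against WT from -0.22 to 0.10 for Idh1, -0.61 to 0.015 for Idh3a and -0.46 to 0.028 for Slc25a1. Share differences, in percentage points, ranged for Idh2 from -1.45 to 3.09 (KO against WT), and for Idh3a from -11.8 to 0.703 (KO with itaconate against KO) and -1.27 to 6.32 (against WT). For Idh3b they ranged from -6.09 to 5.81 (KO against WT), -6.24 to 5.66 (KO with itaconate against KO) and -3.90 to 2.41 (against WT). The cause of these turns was not tested. The labels do not say whether replicate numbers pair the libraries. Deviations of same-numbered libraries correlated between -0.26 and 0.39 (mean 0.039), and those of other numbers between -0.41 and 0.31 (mean -0.018). Of the 9 libraries, 4 correlated best with their own number. These values cannot settle whether the libraries are paired. The replicate block gave 0 calls among the members. Differences of shares within replicate numbers had exact sign-flip p of 0.25 or more. As 0.25 is the smallest p that 3 replicate numbers allow, the sign-flip test could call no share and cannot decide whether the shares differ. The pool 1 fit was added after the data were seen.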
